A study of Mus musculus with 8 samples.

Results

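Interferon-gamma-inducible GTPases were followed in mouse splenic dendritic cells: the guanylate-binding proteins Gbp2, Gbp3 and Gbp4 and the immunity-related GTPases Igtp, Iigp1, Irgm1, Irgm2 and Ifi47. Every probe set that the array's annotation names for one of these 8 genes was taken, which gave 10 of the 45101 probe sets. Of these, 4 belonged to guanylate-binding proteins and 6 to immunity-related GTPases. Gbp2 and Iigp1 had 2 probe sets each. The only probe set for Gbp4 is also annotated to Gbp8, so its signal was not assigned to either gene, and 7 genes with 9 probe sets of their own remained, of 18193 genes that the annotation names alone on a probe set.

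Both families are large GTPases whose transcription rises when interferon-gamma acts on a cell. They assemble on vacuoles that hold intracellular pathogens, and guanylate-binding proteins also take part in inflammasome activation. Among the immunity-related GTPases, Irgm1, Irgm2 and Igtp (also called Irgm3) are regulators that sit on the cell's own membranes and keep the others inactive there, whereas Iigp1 (Irga6) and Ifi47 (Irgd) are effectors that load onto pathogen vacuoles. Splenic dendritic cells fall into a CD8α+ subset, which excels at presenting captured antigen to CD8 T cells, and a CD8α- subset.

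The 4 groups held 2 arrays each, all from untreated female mice on the C57BL/6 strain: CD8α- and CD8α+ dendritic cells of wild type (WT) mice, and the same subsets of RAG2-/- mice, called the knockout. The sample labels give an age of 10 weeks, and the series design gives 8 to 10 weeks. RAG2 is needed to rearrange antigen receptor genes, so knockout mice lack mature T and B cells throughout the body, and the deletion is not restricted to dendritic cells. Nothing in the labels ties the replicates to different mice, and p-values then measure only the spread between these samples, which may be technical. The labels state neither the sorting gates nor whether mice were pooled. The comparisons ask how the GTPases differ between the subsets and between mice with and without mature T and B cells.

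Values are the authors' log2 expression per probe set, from biotin-labelled total RNA on Affymetrix mouse arrays. A log2 value of 5 served as the limit of dim signal, and 64.7 to 66.2% of probe sets were below it on each array. All 4 knockout arrays shared a lowest value of 2.233, at which 18217 to 18893 probe sets sat, whereas the lowest values of the WT arrays were 1.163 to 1.172, with 1 probe set each. The low ends of the 2 sets of arrays thus differ, and genotype and processing cannot be told apart. Comparisons of subsets stay within 1 genotype. Of 7 measured dendritic cell markers, all were at or above 5 on all 8 arrays, and the mean of 7 markers of CD8α+ dendritic cells was 11.1 to 12.2 on CD8α+ arrays and 6.36 to 8.11 on CD8α- arrays. Rag1 and Rag2 were at most 3.63 on every array, so they do not check the genotype. Genes of neutrophils set apart 2 knockout arrays, CD8α+ replicate 1 with 6 of 8 markers at or above 5 and CD8α- replicate 2 with 7 of 8, against at most 1 of 8 on the other arrays.

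Promoter sequence shows what these genes share upstream of the start site. Interferon responses are written in promoters mainly by 2 elements: the interferon-stimulated response element (ISRE), bound by IRF factors, and the gamma-activated site (GAS). The ISRE core and the GAS core (TTCNNNGAA) were searched on both strands, in windows of 250 bases before to 50 bases after the start (RefSeq, GRCm38.p6). Windows were found for 6 of the 8 genes. The 100 bases before the start are shown for these 6, written 5′ to 3′ on the gene's strand, with matches to either core in capitals, at chr3:142620563-142620662 (+) for Gbp2, chr3:142559944-142560043 (+) for Gbp3, chr11:58199456-58199555 (+) for Igtp, chr11:58214877-58214976 (+) for Irgm2, chr11:48871421-48871520 (-) for Irgm1 and chr11:49076487-49076586 (+) for Ifi47. For Gbp3 this is the first of 2 windows.
Gbp2: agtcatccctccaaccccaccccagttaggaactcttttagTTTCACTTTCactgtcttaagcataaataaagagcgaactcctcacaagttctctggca
Gbp3: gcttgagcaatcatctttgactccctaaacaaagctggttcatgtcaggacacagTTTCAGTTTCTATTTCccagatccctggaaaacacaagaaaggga
Igtp: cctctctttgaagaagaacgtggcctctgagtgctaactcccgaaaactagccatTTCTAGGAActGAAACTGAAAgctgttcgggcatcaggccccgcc
Irgm2: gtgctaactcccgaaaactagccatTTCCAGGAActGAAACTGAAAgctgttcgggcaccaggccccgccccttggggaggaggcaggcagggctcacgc
Irgm1: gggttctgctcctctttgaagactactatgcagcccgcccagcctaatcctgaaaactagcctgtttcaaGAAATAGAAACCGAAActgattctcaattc
Ifi47: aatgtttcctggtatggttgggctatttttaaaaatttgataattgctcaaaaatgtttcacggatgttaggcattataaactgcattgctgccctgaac

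An ISRE core was present in 5 of these 6 genes, and Gbp3 and Irgm1 held 2 overlapping matches each. Of all 27025 genes with a window, 3.99% held an ISRE core (3.44% of 32851 windows). A GAS core was present in Igtp and Irgm2, against 9.55% of all genes (8.3% of windows), and both cores in 0.54% of all genes (0.454% of windows). In Igtp the GAS core lay 45 to 37 bases and the ISRE core 34 to 25 bases upstream of the start, and in Irgm2 the same pair lay 75 to 67 and 64 to 55 bases upstream. Igtp and Irgm2 are neighbours on chromosome 11, and their 250 upstream bases were identical at 197 of 286 aligned columns (68.9%), where the other pairs among these genes reached 46.4 to 55.4%. The letters of neither core were in the Ifi47 window. A match is a run of letters and not a tested site. Among other GTPases of the families, 7 of 10 genes with a window held an ISRE core, and among type I interferon-stimulated genes 7 of 14 did.

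Gbp2 encodes a guanylate-binding protein that coats bacterial and parasite vacuoles. Its brighter probe set read 10.30 and 10.49 in WT CD8α- cells, 9.96 and 9.98 in WT CD8α+ cells, 9.52 and 8.74 in knockout CD8α- cells, and 8.75 and 7.58 in knockout CD8α+ cells. All 4 WT arrays were above all 4 knockout arrays, and the knockout subsets overlapped. The share of all genes with arrays so separated was not counted, here or for the members below. The other probe set read 8.61 and 8.44, 7.70 and 8.69, 8.62 and 8.58, and 8.13 and 7.12 in the same order of groups. On this probe set no group stood clear of its neighbour, and the genotypes overlapped. The brighter one carries the suffix _x_at, which marks probes that can also match other transcripts, so the level of Gbp2 by genotype is uncertain.

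Gbp3 belongs to the same chromosome 3 cluster, in which the order of genes is Gbp5, Gbp7, Gbp3, Gbp2b and Gbp2. It read 9.22 and 9.48 in WT CD8α- cells, 8.40 and 8.37 in WT CD8α+ cells, 8.71 and 8.69 in knockout CD8α- cells, and 7.37 and 7.17 in knockout CD8α+ cells. No group overlapped another, and the order ran from WT CD8α- through knockout CD8α- and WT CD8α+ to knockout CD8α+ cells. The probe set shared by Gbp4 and Gbp8 read 2.02 to 2.23 on all arrays, below 5 throughout. A probe set of Gbp8 alone had a mean of 12.30 in WT CD8α- cells, so the shared one does not report the level of Gbp8. It gives no usable level for Gbp4 either.

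Igtp, a regulator, read 10.36 and 10.00 in WT CD8α- cells, 8.79 and 8.93 in WT CD8α+ cells, 10.18 and 9.35 in knockout CD8α- cells, and 8.60 and 8.60 in knockout CD8α+ cells. The 4 CD8α- arrays were all above the 4 CD8α+ arrays, while the genotypes overlapped in CD8α- cells. Irgm2, its neighbour and also a regulator, read 10.38 and 10.66, 9.65 and 9.56, 10.24 and 10.14, and 8.86 and 9.07 in the same order of groups. It followed the group order of Gbp3, with no overlap between neighbours.

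Irgm1, the regulator best known for its link to autophagy and to the survival of infected mice, had another order. It read 8.87 and 9.22 in WT CD8α- cells, 8.71 and 8.77 in WT CD8α+ cells, 10.59 and 9.97 in knockout CD8α- cells, and 9.52 and 9.69 in knockout CD8α+ cells. Each knockout array was above each WT array, and within a genotype the CD8α- arrays were above the CD8α+ arrays.

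The effector Ifi47 read 10.65 and 11.04 in WT CD8α- cells, 9.40 and 9.35 in WT CD8α+ cells, 11.61 and 11.39 in knockout CD8α- cells, and 9.68 and 9.83 in knockout CD8α+ cells. Its CD8α- arrays were all above its CD8α+ arrays, and the knockout was above the WT in both subsets. The effector Iigp1 ran the opposite way between the subsets. Its brighter probe set read 5.68 and 5.39 in WT CD8α- cells, 8.06 and 8.15 in WT CD8α+ cells, 4.56 and 4.50 in knockout CD8α- cells, and 5.91 and 6.01 in knockout CD8α+ cells. It was the only one of the 7 genes with its highest level in CD8α+ cells, and it was dim in knockout CD8α- cells. The other probe set of Iigp1 read 3.45 and 3.45, 5.76 and 6.37, 4.58 and 4.55, and 6.12 and 5.57 in the same order of groups. CD8α+ arrays were again above CD8α- arrays, but the genotypes overlapped in CD8α+ cells and their order was turned in CD8α- cells, where all 4 arrays were below 5.

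**Figure D1:**
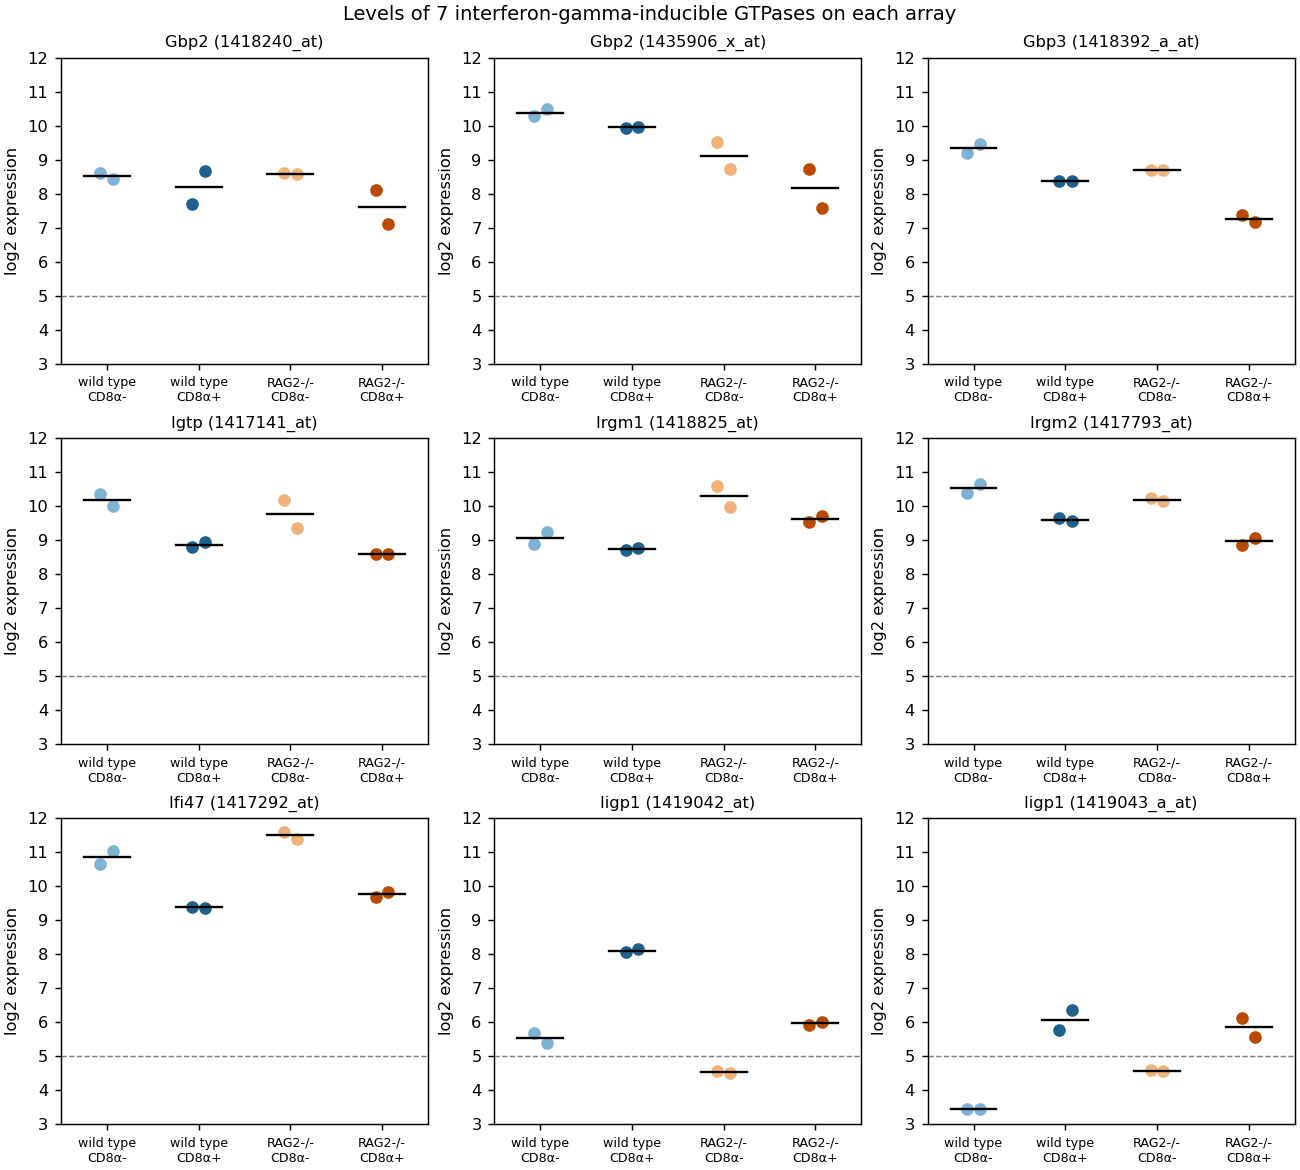
Log2 expression (y axis) of the 9 probe sets of 7 GTPases in the 4 groups (x axis), with 1 point per array, a bar for the mean of 2 arrays and a dashed line at the limit of 5. CD8α- arrays lie above CD8α+ arrays for Gbp3, Igtp, Irgm1, Irgm2 and Ifi47 within each genotype and below them for Iigp1. The share of all genes with arrays so separated was not counted, and Irgm1 passed the threshold between the subsets in neither genotype. The 2 probe sets of Gbp2 and of Iigp1 differ in how the genotypes lie.

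In WT cells, most of the GTPases were lower in the CD8α+ subset and Iigp1 was higher. Of the 7 genes tested, 1 rose, 4 fell and 2 did not pass (limma, Benjamini-Hochberg adjusted over 8763 genes, threshold 0.05), where 17.1% of all genes tested were called, 9.23% higher and 7.87% lower. The median change of the 7 was -0.92 on the log2 scale, against 0.01 over all genes. Iigp1 was 5.94-fold higher in the CD8α+ subset (log2 change 2.57, SE 0.17, limma adjusted p = 0.000172). Ifi47 was 2.77-fold lower, with a change of -1.47 (SE 0.20, adjusted p = 0.00264), from 10.85 ± 0.27 to 9.37 ± 0.03 (SD, n = 2). These 2 effectors therefore changed in opposite directions. The regulators Igtp and Irgm2 fell 2.49-fold (-1.32, SE 0.29, adjusted p = 0.0201) and 1.90-fold (-0.92, SE 0.18, adjusted p = 0.0135). Gbp3 fell 1.95-fold (-0.97, SE 0.18, adjusted p = 0.01). Irgm1 (-0.31, adjusted p = 0.481) and Gbp2 (-0.43, adjusted p = 0.559) did not pass. Some of these calls were lost with fewer arrays: Gbp3 did not pass once CD8α- replicate 2 (adjusted p = 0.0696) or CD8α+ replicate 2 (0.0567) was left out, nor Irgm2 once CD8α- replicate 2 (0.0885) or CD8α+ replicate 1 (0.0506) or 2 (0.0758) was, nor Igtp without any 1 of the 4 WT arrays (0.0673 to 0.138). Wherever an omission leaves a group with 1 array, the test lends that array the spread seen in the rest. With CD8α- replicate 2 or CD8α+ replicate 2 left out, 2 members were called, and with CD8α+ replicate 1 left out, 3. Over all genes, 8.62 to 12% were called with 1 WT array left out, against 17.1%.

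In cells of the knockout, Iigp1 was again higher and Ifi47, Gbp3, Irgm2 and Igtp again lower in the CD8α+ subset. Of the 7 genes, 1 rose, 4 fell and 2 did not pass, where 21.8% of all genes were called, 11.1% higher and 10.7% lower. The median change of the 7 was -1.17 against 0.02 over all genes. Iigp1 was at least 1.94-fold higher in CD8α+ cells, because its CD8α- arrays were below 5 (change 1.43, SE 0.17, limma adjusted p = 0.00166). Ifi47 fell 3.34-fold (-1.74, SE 0.20, adjusted p = 0.00118), from 11.50 ± 0.16 to 9.76 ± 0.10 (SD, n = 2). Gbp3 fell 2.70-fold (-1.43, adjusted p = 0.00176) and Irgm2 2.34-fold (-1.23, adjusted p = 0.00364). Igtp fell 2.25-fold (-1.17, adjusted p = 0.0288), a call that was lost on leaving out knockout CD8α- replicate 1 (-0.75), either knockout CD8α+ array or any 1 of the 4 WT arrays (adjusted p 0.0539 to 0.110). Gbp2 did not pass (-0.96, adjusted p = 0.140), but did without CD8α+ replicate 1 (-1.55, adjusted p = 0.0391) and without both arrays with neutrophil transcripts (-1.94, adjusted p = 0.0138), which leave 1 array in 1 or both groups. Irgm1 did not pass either (-0.68, adjusted p = 0.0984), but did without CD8α- replicate 2 (-0.99, adjusted p = 0.0333).

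**Figure D2:**
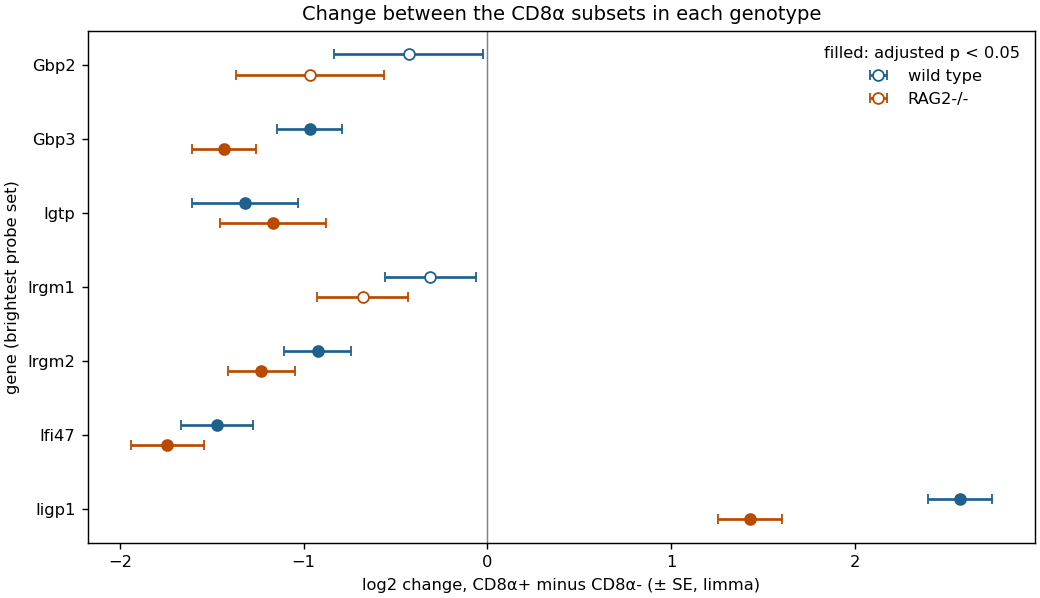
Log2 change from CD8α- to CD8α+ cells (x axis, ± SE from limma) of each gene's brightest probe set in WT and RAG2-/- mice; filled points passed an adjusted p of 0.05. Iigp1 lies to the right of 0 in both genotypes, at 2.57 and 1.43, and the other 6 genes lie to the left, of which Gbp2 and Irgm1 have open points.

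Probe sets gave the same subset result where a gene had 2. The dimmer probe set of Iigp1, whose CD8α- arrays were all below 5, was at least 2.09-fold higher in CD8α+ cells of WT (limma over 14603 probe sets, adjusted p = 0.00136) and at least 1.80-fold higher in those of knockout mice (adjusted p = 0.0204). Neither Gbp2 probe set passed between the subsets: the dimmer one changed by -0.33 in WT (adjusted p = 0.694) and by -0.97 in the knockout (adjusted p = 0.161).

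Between the genotypes, the members split. In CD8α- cells the guanylate-binding proteins and Iigp1 were lower in the knockout, whereas Irgm1 and Ifi47 were higher. Of the 7 genes, 2 rose and 3 fell, where 40.5% of all genes were called, 23.4% higher and 17.1% lower. With each array centred on its median, which lay below 5, 2 rose and 0 fell, and with quantile normalization 1 rose and 4 fell. Irgm1 rose 2.35-fold, from 9.05 ± 0.25 to 10.28 ± 0.44 (SD, n = 2; change 1.24, SE 0.25, limma adjusted p = 0.00844), but missed the threshold without WT CD8α- replicate 1 (1.06, adjusted p = 0.0621). Ifi47 rose 1.57-fold (0.65, adjusted p = 0.0359), and Gbp3 fell 1.57-fold (-0.65, adjusted p = 0.0253). Iigp1 was at least 1.45-fold lower (-1.0, adjusted p = 0.00514), while its other probe set changed by 1.12 the other way (limma over probe sets, adjusted p = 0.0191) with both groups below 5. Gbp2 fell 2.41-fold on its brighter probe set (-1.27, SE 0.40, adjusted p = 0.0426) and changed by 0.07 on the other (adjusted p = 0.904). Igtp (-0.42, adjusted p = 0.278) and Irgm2 (-0.33, adjusted p = 0.183) did not pass.

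Several of the calls in CD8α- cells were lost with 1 array fewer. Gbp3 missed the threshold without any 1 of the 4 CD8α- arrays (adjusted p 0.0518 to 0.125), with changes of -0.51 to -0.78. Ifi47 did so without knockout CD8α- replicate 1 (0.130) or 2 (0.0558), WT CD8α- replicate 1 (0.181) or either WT CD8α+ array (0.0549). Gbp2 did so without knockout CD8α- replicate 2 (-0.88, adjusted p = 0.188), WT CD8α- replicate 1 (0.132) or 2 (0.172), or either WT CD8α+ array (0.0754). Igtp passed only without knockout CD8α- replicate 1 (-0.84, adjusted p = 0.0388), which leaves 1 knockout array in that comparison, and changed by -0.0017 without knockout CD8α- replicate 2. The count of members called, 5 with all arrays, was 1 without WT CD8α- replicate 1, 2 without knockout CD8α- replicate 2 and 3 without WT CD8α- replicate 2 or either WT CD8α+ array. The share of all genes called, 40.5% with all arrays, was 19.5%, 31%, 23.1% and 37.5% in these omissions.

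In CD8α+ cells, 1 of the 7 genes rose in the knockout and 4 fell, where 36.9% of all genes were called, 20.8% higher and 16.1% lower. With each array centred on its median, 2 rose and 2 fell. Iigp1 fell 4.42-fold, from 8.10 ± 0.06 to 5.96 ± 0.07 (SD, n = 2; change -2.15, SE 0.17, limma adjusted p = 0.000694), but its other probe set changed by -0.22 (adjusted p = 0.565) and its arrays overlapped. Gbp3 fell 2.16-fold (-1.11, SE 0.18, adjusted p = 0.00431). Gbp2 fell 3.49-fold on the brighter probe set (-1.81, adjusted p = 0.0141), whereas the other changed by -0.57 (adjusted p = 0.318). Irgm2 fell 1.56-fold (-0.64, adjusted p = 0.0317), and Irgm1 rose 1.82-fold (0.87, adjusted p = 0.0320). Ifi47 (0.38, adjusted p = 0.169) and Igtp (-0.27, adjusted p = 0.496) did not pass. Irgm1 and Irgm2 both missed the threshold without any 1 of the 4 CD8α+ arrays (adjusted p 0.0783 to 0.127 and 0.0549 to 0.123). Gbp2 did so without knockout CD8α+ replicate 2 (-1.22, adjusted p = 0.0515) or WT CD8α+ replicate 1 (0.0728) or 2 (0.0671). The count of members called fell to 3 without knockout CD8α+ replicate 1 and to 2 without any 1 of the other 3 CD8α+ arrays, while the share of all genes called fell from 36.9% to 19.1 to 24.4%.

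The direction of the smaller genotype changes turned with median centring. The array medians, taken over all probe sets, lay in dim signal, at 2.33 to 2.38 on knockout and 2.97 to 3.06 on WT arrays. Centring on them therefore carries the difference between the low ends into every genotype change. As deposited, the median change over all genes was 0.14 in CD8α- and 0.09 in CD8α+ cells, and it was 0.81 and 0.78 once each array was centred on its median. On that scale Gbp3 changed by 0.01 in CD8α- cells, Irgm2 by 0.33 and 0.04 and Igtp by 0.24 and 0.41 in CD8α- and CD8α+ cells, so that these directions flipped, while Ifi47 passed in CD8α+ cells (1.06, limma adjusted p = 0.00476). Relative to the median of all genes, all of these but Ifi47 stayed below it on either scale.

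**Figure D3:**
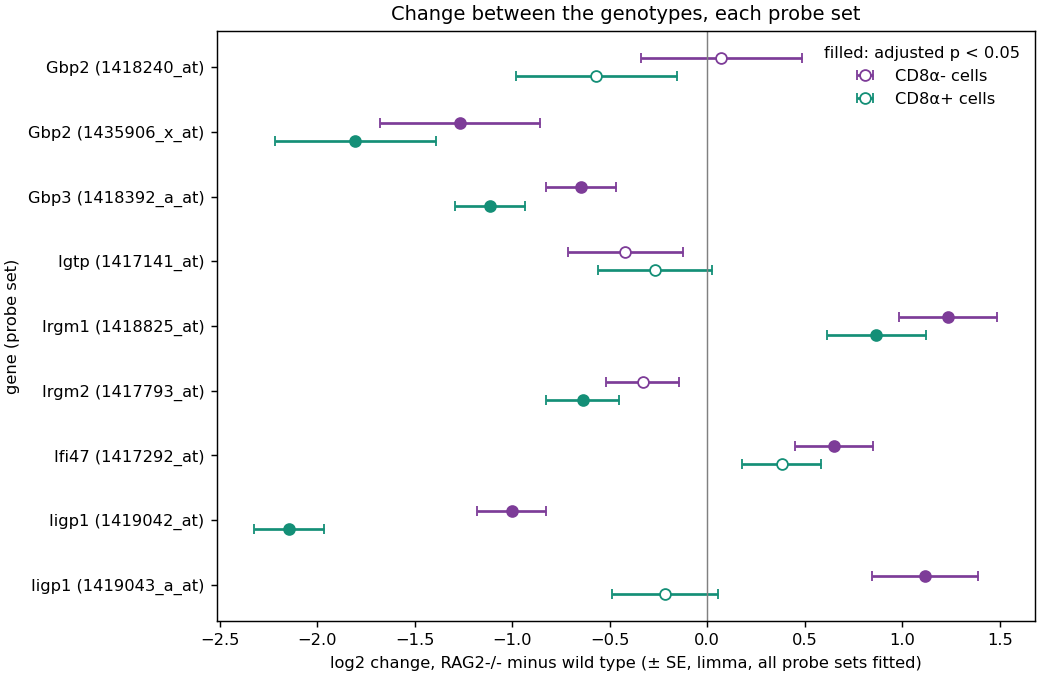
Log2 change from WT to RAG2-/- (x axis, ± SE from limma fitted over all probe sets) for 9 probe sets in CD8α- and CD8α+ cells; filled points passed an adjusted p of 0.05. Gbp3 and the brighter probe sets of Gbp2 and Iigp1 lie left of 0 and Irgm1 lies right of it in both subsets, whereas the other probe sets of Gbp2 and Iigp1 lie elsewhere, at 0.07 and 1.12 in CD8α- cells.

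No member had a subset difference that changed between the genotypes past the threshold. In the limma interaction, the genotype change of the CD8α+ subset minus that of the CD8α- subset, in which an offset common to a genotype's arrays cancels, 0 of 7 members were called, 1 had an unadjusted p under 0.05, and 0.24% of all genes were called, 0.0799% higher and 0.16% lower. That 1 gene was Iigp1 (interaction -1.14, SE 0.25, unadjusted p = 0.00231, adjusted p = 0.245). Its size is not exact, since the knockout CD8α- arrays were below 5, and with values below 5 set to 5 it was -1.61 (adjusted p = 0.0553). Its adjusted p was 0.0553 to 0.543 over the other settings, and its other probe set gave -1.33 (adjusted p = 0.509). The remaining members had interactions from -0.54 (Gbp2, adjusted p = 0.891) to 0.15 (Igtp, adjusted p = 0.965).

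The families were also set side by side. The 2 tested guanylate-binding proteins had a median subset change of -0.70 in WT and -1.20 in knockout cells, and the 5 immunity-related GTPases -0.92 and -1.17. Between the genotypes the medians were -0.96 and -1.46 for guanylate-binding proteins and -0.33 and -0.27 for immunity-related GTPases in CD8α- and CD8α+ cells. Both guanylate-binding proteins were called lower in the knockout in both subsets, where 17.1% and 16.1% of all genes were called lower. Among the 5 immunity-related GTPases, 2 rose and 1 fell in CD8α- cells and 1 rose and 2 fell in CD8α+ cells. In either direction, 40.5% and 36.9% of all genes were called. The medians of the guanylate-binding proteins and the calls of Gbp2 rest on the brighter probe set of Gbp2. Its other probe set changed by 0.07 and -0.57 between the genotypes and passed in neither subset. With 2 genes in that family, no test of the difference between families was made.

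Across the 8 arrays, Gbp3 and Irgm2 ran most alike (r = 0.965), followed by Igtp and Irgm2 (r = 0.898), while Iigp1 ran against Ifi47 (r = -0.889) and Irgm1 (r = -0.791). These values describe 8 arrays in 4 groups and follow the group means. The genes most like the mean of the 7 members were Hgsnat (r = 0.982), Sdhaf1 (0.979), Sh2b1 (0.978), Csgalnact2 (0.970), Spata13 (0.970) and Dzip1 (0.969). Of the members, each of which is itself part of that mean, Gbp3 had r = 0.969 with it, and Irgm1 (-0.081) and Iigp1 (-0.179) were unlike it.

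Other GTPases of the same families had few probe sets of their own: of 21 listed genes, 7 were named on the array and 4 were tested. Gbp7, next to Gbp3, fell from 8.66 ± 0.18 in CD8α- to 6.48 ± 0.37 in CD8α+ cells of WT mice (SD, n = 2; -2.18, SE 0.30, limma adjusted p = 0.00283) and from 8.19 ± 0.32 to 5.10 ± 0.43 in the knockout (-3.09, adjusted p = 0.000598). Gbp8, measured by a probe set other than the one it shares with Gbp4, fell from 12.30 ± 0.06 to 10.83 ± 0.15 in WT (-1.47, SE 0.19, adjusted p = 0.00214) and from 11.77 ± 0.19 to 8.79 ± 0.15 in the knockout (-2.97, adjusted p = 0.000123). Both were lower in CD8α+ cells of the knockout than of WT mice, by -1.38 (adjusted p = 0.0122) and -2.03 (adjusted p = 0.000928), and neither passed between the genotypes in CD8α- cells. Gbp6 and Irgq passed in no comparison. Of these 4 genes, 0 rose and 2 fell between the subsets in each genotype, the direction seen for Gbp3. Of all genes, 7.87% were called lower in WT and 10.7% in the knockout.

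Genes upstream of the GTPases were called in both genotype comparisons. Of 8 tested genes of interferon-gamma signalling, 0 passed between the subsets in WT and 1 fell in the knockout, namely Socs3, a feedback inhibitor (-2.04, limma adjusted p = 0.0293), where 17.1% and 21.8% of all genes were called. In the knockout, 4 of the 8 rose and 0 fell in each subset, where 23.4% of all genes were called higher in CD8α- and 20.8% in CD8α+ cells. Ifngr1, the ligand-binding receptor chain, rose by 1.13 (adjusted p = 0.0220) in CD8α- and 1.45 (0.0101) in CD8α+ cells. The kinase gene Jak1 rose by 1.48 (0.0107) and 1.10 (0.0333), and Pias1, a SUMO ligase, by 1.36 (0.00328) and 0.95 (0.0123). Irf1, an interferon-induced transcription factor, rose by 1.62 in CD8α- cells (adjusted p = 0.00513) and changed by 0.80 in CD8α+ cells (0.0612). Ifng itself was at 2.23 to 2.70 on all arrays, below 5. Ifngr2, the other receptor chain, did not pass and changed by -0.47 and -0.62.

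Other interferon-gamma-inducible genes were called mostly higher in CD8α+ cells. Of 14 tested, 6 rose and 1 fell in WT CD8α+ cells (median 0.74), and 7 rose and 2 fell in the knockout (median 0.61). Of all genes, 9.23% rose and 7.87% fell in WT, and 11.1% rose and 10.7% fell in the knockout. Those that rose include Irf8, which also served as a marker of CD8α+ dendritic cells. They also include Ido1, which was below 5 in both WT groups (means 2.69 and 4.64) and had a mean above 5 only in knockout CD8α+ cells (5.37). The falls in the knockout include Fcgr1, whose mean was above 5 only in knockout CD8α- cells (5.59, against 2.18 to 2.34). Both passed the filter on dim values only through the group where they were highest. Cxcl9, a chemokine for activated T cells, rose by 4.81 (limma adjusted p = 0.000205) and 3.58 (0.000600), the proteasome gene Psmb9 by 1.03 (0.00697) and 1.39 (0.00189), and the peptide transporter gene Tap1 by 0.90 (0.0414) and 1.10 (0.0174). Cd274, which encodes PD-L1, fell by 2.36 (0.000192) and 2.46 (0.000156). Iigp1 thus moved as Cxcl9 did and the other called members as Cd274 did. Between the genotypes 5 of the 14 rose and 0 fell in each subset, where 23.4% and 20.8% of all genes were called higher. Among those that rose was Ciita, the master regulator of MHC class II (0.90 with adjusted p = 0.00700, and 1.08 with 0.00425). In CD8α- cells the 5 also include Fcgr1.

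Type I interferon-stimulated genes were mostly lower in CD8α+ cells. Of 14 tested, 1 rose and 10 fell in WT (median -2.54), where 9.23% of all genes rose and 7.87% fell. In the knockout 0 rose and 9 fell (median -1.25), where 11.1% of all genes rose and 10.7% fell. Rtp4, an interferon-induced chaperone, was at least 21.4-fold lower in WT CD8α+ cells (limma adjusted p = 0.000465) and 35.3-fold lower in the knockout (0.000594). Ifit3, an antiviral RNA-binding adaptor, was at least 17.2-fold lower (0.000309) and 23.1-fold lower (0.000486), and Mx1, itself an interferon-induced GTPase, rose by 1.44 in WT (0.00747). Between the genotypes 7 of 14 rose and 0 fell in each subset, where 23.4% and 20.8% of all genes were called higher, among them Irf7, by 3.32 (adjusted p = 0.00240) in CD8α- and 3.44 (0.00245) in CD8α+ cells. Ifi47, Igtp, Irgm2 and Gbp3 therefore changed in the same direction as 10 of these 14 genes between the WT subsets, with smaller changes than Rtp4 and Ifit3.

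Genes of the autophagy conjugation machinery, which helps place these GTPases on membranes, and of the inflammasomes they act with were also tested. Of 15, 0 rose and 1 fell between the subsets in WT and 0 rose and 2 fell in the knockout, where 17.1% and 21.8% of all genes were called. The inflammasome protease gene Casp1 fell in both (-1.45, limma adjusted p = 0.0126, and -2.07, adjusted p = 0.00258), and Casp4, the sensor of cytosolic lipopolysaccharide, fell in the knockout (-2.02, adjusted p = 0.00625). Between the genotypes, 7 rose and 2 fell in CD8α- cells and 6 rose and 2 fell in CD8α+ cells, where 23.4% and 20.8% of all genes were called higher. Atg16l1, part of the LC3 ligase, rose by 1.77 (adjusted p = 0.00296) and 1.63 (0.00435), whereas Map1lc3b, an LC3 gene, fell by 1.25 (0.00400) and 1.08 (0.00754), and Aim2, a DNA sensor, fell by 1.52 (0.00197) and 1.55 (0.00225).

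**Figure D4:**
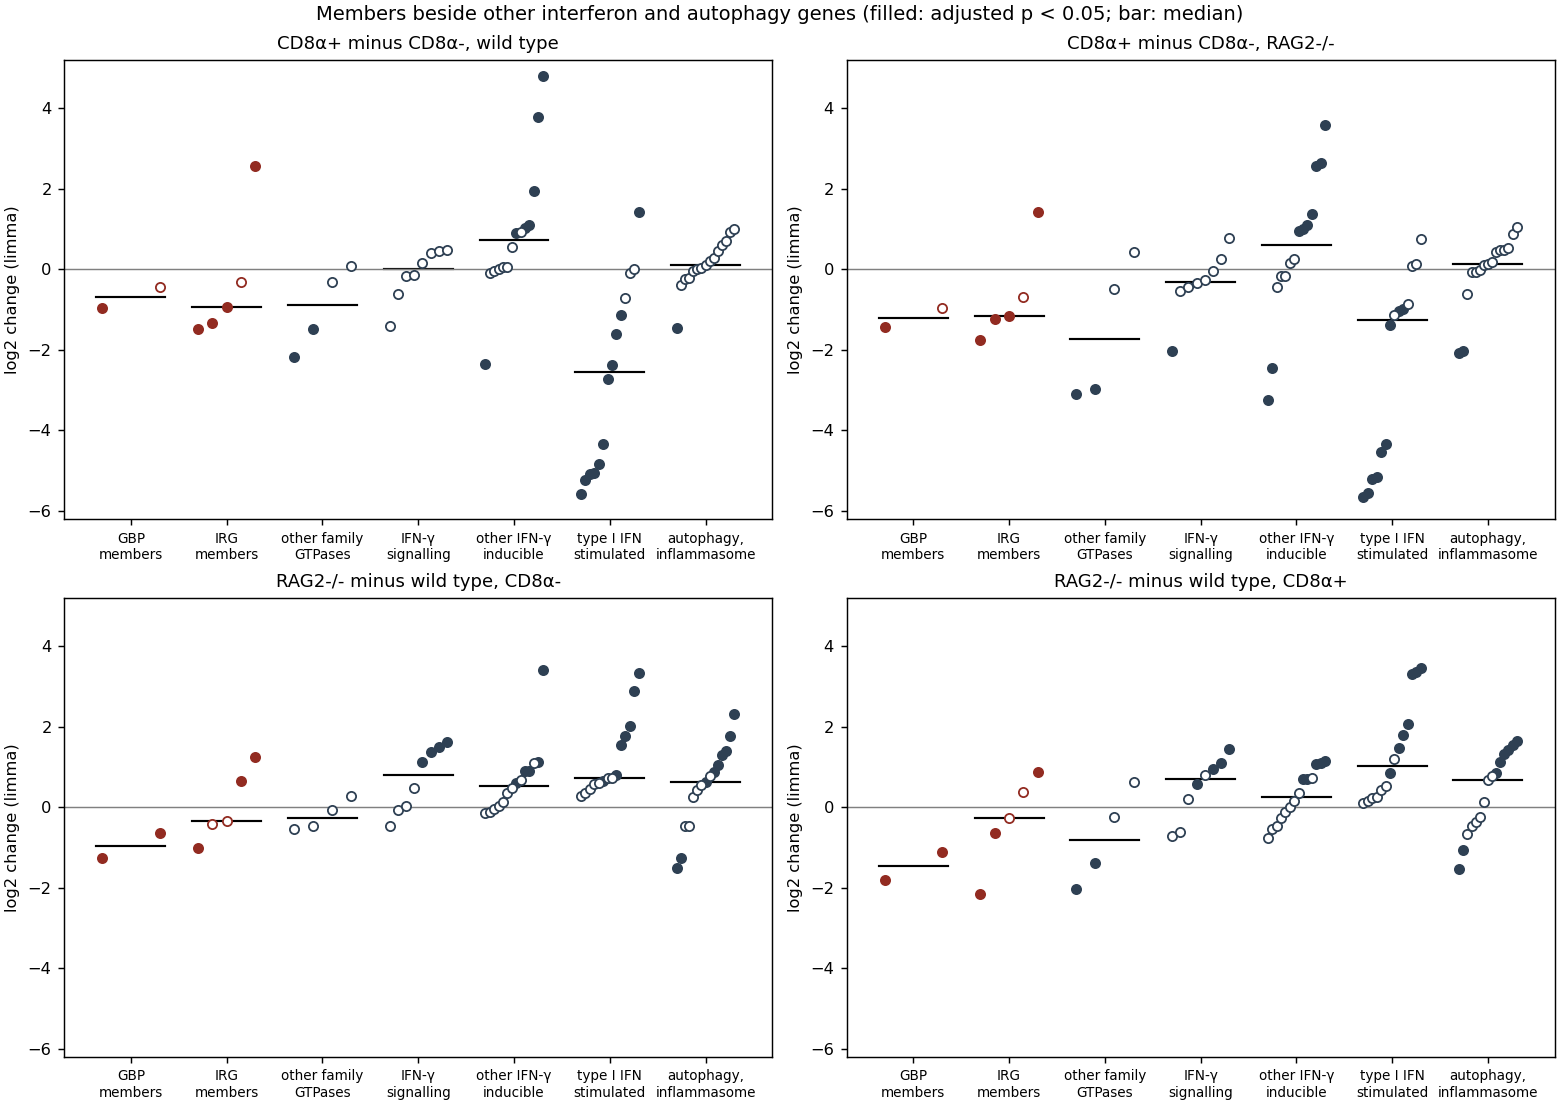
Log2 change (y axis, limma) of each tested gene, by list (x axis), in the 4 comparisons; filled points passed an adjusted p of 0.05 and bars are list medians. In the subset panels the members lie below 0 apart from Iigp1, with medians of -0.70 and -0.92 in WT, while other interferon-gamma-inducible genes have medians of 0.74 and 0.61 and type I interferon-stimulated genes of -2.54 and -1.25.

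Markers of other cells moved with the comparisons. Of 8 measured macrophage markers, 6 were at or above 5 on each WT array and 7 to 8 on the knockout arrays, with mean levels of 8.33 to 8.69 in WT CD8α- cells, 7.73 to 7.79 in WT CD8α+ cells, 10.8 to 10.9 in knockout CD8α- cells and 9.31 to 9.72 in knockout CD8α+ cells. Their mean was thus higher in CD8α- cells and in the knockout. The mean levels of Irgm1 and Ifi47 lay the same way, though not all of these differences passed. On the brightest probe sets, Gbp2, Gbp3, Igtp and Irgm2 were higher in CD8α- cells but lower in the knockout, and Iigp1 was lower in both. Of 8 measured B cell markers, 6 were at or above 5 on WT arrays (mean 6.33 to 7.33) and 1 to 2 on knockout arrays (mean 3.85 to 4.09), and Pax5, which defines the lineage, was below 5 on all arrays. T cell markers reached 5 for at most 1 of 7 genes on any array. Of 7 measured markers of NK cells, which can make interferon-gamma, knockout CD8α- replicate 2 had 5 at or above 5 (mean 6.55) and the other arrays 1 to 3 (mean 3.70 to 4.95). The NK receptor gene Ncr1 was below 5 on all arrays, but read 4.55 on knockout CD8α- replicate 2 against 2.23 to 2.32 on the others. The protease gene Gzma was at 8.5 to 11.53 on knockout and 5.51 to 7.58 on WT arrays. Of 3 tested NK genes 2 rose in CD8α- and 1 in CD8α+ cells between the genotypes, where 23.4% and 20.8% of all genes were called higher. The part of these markers in the levels of the GTPases was not tested. In sorted bulk cells, fewer cells of a type and less RNA per cell cannot be told apart. Leaving out both arrays with neutrophil transcripts turned no subset or genotype change of the 7 members, but the genotype change of Igtp in CD8α- cells was then -0.0017. The genotype calls of Gbp3 (-0.64, adjusted p = 0.0730) and Ifi47 (0.76, 0.0694) in CD8α- cells and of Irgm2 in CD8α+ cells (-0.53, 0.119) were lost.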

How the data were processed

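The 8 arrays (4 groups of 2) were used through the table of log2 expression values that the authors deposited. Per the submitters' processing notes, GCRMA and affy were used for the wild type arrays and GCRMA for the knockout arrays, with versions and any joint normalization of the genotypes not given in the sources used here. Gene names came from the platform annotation: of 45101 probe sets, 34945 had 1 gene name, 932 several, 9160 none and 64 were controls. Dim probe sets (under log2 5 on all arrays or all but 1) were dropped and the brightest of a gene (highest mean over 8 arrays) was used, leaving 8763 genes.

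All genes were fitted together, with 1 mean per group, in limma 3.58.1 in R 4.3.3 (lmFit, eBayes, 4 residual degrees of freedom). P-values were 2-sided, adjusted by Benjamini-Hochberg over all genes, and called under 0.05. Fits of single probe sets covered 14603 probe sets. A fold is given as at least so large, against a level of 5, where the lower group was below 5 on each array. No depth applies to arrays; their number limits the precision. The fit was tested on simulated data. Plots used matplotlib 3.10.9 (Python 3.11.15), and promoters were aligned with Biopython 1.88.

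The members, the lists and the tests were chosen with earlier results of these data known. The genes named are the 8 members, members of the lists and the 6 genes whose profile over the arrays was most like the members' mean. Alternatives were quantile normalization, median centring, no filter or a filter at log2 7, values below 5 set to 5, averaged or separate probe sets, limma-trend with robust eBayes, the compared groups alone, the replicate number as a block and leaving out each array. Added after seeing the data were the other probe set of Gbp2 or Iigp1 and leaving out both arrays with neutrophil transcripts.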

Additional observations from a re-analysis of the deposited data

How the results depend on the processing

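Of the 20 calls of members in the subset and genotype comparisons, 6 were kept under every setting run and 9 under every omission of 1 array. The 6 were Iigp1 and Ifi47 between the subsets of both genotypes, and Gbp3 and Irgm2 between the knockout subsets. Counts of members called ranged, over omissions of 1 array, from 2 to 5 (wild type subsets), 4 to 6 (knockout subsets), 1 to 5 (genotypes, CD8α-), 2 to 5 (genotypes, CD8α+) and stayed at 0 (interaction). In the genotype comparison of CD8α- cells, 5 members were called as deposited, 3 in a fit of the compared groups alone, 3 with probe sets averaged, 2 with median centring and 3 without both arrays with neutrophil transcripts.

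Directions turned as follows. With median centring, genotype changes became 0.0107 for Gbp3 in CD8α- cells, 0.24 and 0.41 for Igtp and 0.33 and 0.0356 for Irgm2 in CD8α- and CD8α+ cells. The array medians used for this lay in dim signal and differed between the genotypes. In CD8α- cells the genotype change of Gbp2 was 0.0729 on its other probe set, and that of Iigp1 was 1.12 on its other probe set and 0.0572 with the mean of both. The Gbp2 interaction ranged from -1.12 to 0.0452 and the Igtp interaction from -0.27 to 0.57 over omissions of 1 array, with turned signs without knockout CD8α+ replicate 2 for Gbp2 and without knockout CD8α- replicate 2 (-0.27) or wild type CD8α- replicate 1 (-0.03) for Igtp. Without both arrays with neutrophil transcripts the Igtp interaction was also -0.27. The cause was not tested. Over single members and settings, 590 values kept direction and side of the threshold, 60 lost and 6 gained a call, and 12 turned.

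Without a filter on dim values, 10923 and 10678 of 18193 genes were called between the genotypes in CD8α- and CD8α+ cells, against 3548 and 3230 of 8763; the cause was not tested. Replicate numbers did not pair the arrays (correlation of replicate deviations between groups -0.146 to 0.112). With the number as a block, 5, 5, 4, 5 and 0 members were called in the comparisons in the above order. The block ended the genotype call of Ifi47 in CD8α- cells (adjusted p = 0.0513). With 2 arrays a group, small changes are not well resolved.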
